A study of Sorghum bicolor with 12 samples.

Results

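Cellulose synthases (CESA) are plasma membrane enzymes that polymerise glucose into the glucan chains of cellulose. In Arabidopsis, CESA1, CESA3 and members of the CESA6 group form the complexes of the growing primary wall, whereas CESA4, CESA7 and CESA8 form those of the secondary wall, which is laid down in xylem vessels and fibres after elongation. Mutants in the Arabidopsis secondary wall genes have collapsed xylem, and this phenotype gave the genes their irregular xylem (IRX) names.

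The results below concern 3 sorghum cellulose synthase loci, Sobic.003G296400, Sobic.002G205500 and Sobic.001G224300, in 12 RNA-seq libraries. The loci were chosen by their expression: among the cellulose synthases of the study's functional annotation, they had the highest rise in Int3, so the levels and differences of the 3 genes are given as a description, with no test. Each locus had 1 transcript in the table, and the 3 transcripts were 3 of 47205 transcripts and 3 of 34211 loci. The study's protein match in Arabidopsis was CESA8 for Sobic.003G296400, CESA7 (IRX3) for Sobic.002G205500 and CESA4 for Sobic.001G224300, and they are called the CESA8-type, CESA7-type and CESA4-type genes here. These names rest on protein similarity to Arabidopsis, and the type of wall that the sorghum genes serve was not measured.

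The libraries came from stems of the bioenergy sorghum inbred R.07020, kept vegetative in a growth chamber under a 14 h photoperiod and sampled 60 days after planting. Int1 was the youngest internode, just below the shoot apex, and Int2, Int3 and Int4 were the next 3 internodes down the stem, with 3 libraries each, taken from 3 plants as biological replicates. All plants had the same genotype and treatment, so position on the stem, and with it developmental age, was what differed between groups. Expression was given as RPKM, a read count divided by the length of the transcript and by the mapped reads of the library, so that levels can be set side by side between genes. RPKM values summed to 467612 to 508319 per library, and the sequencing depth relative to Int1 replicate 1, read from the spacing of the lowest values, was 0.835 (Int3 replicate 1) to 1.06 (Int4 replicate 3). Each library was RNA of a whole internode. A change in RPKM could therefore come from more cells of a type or from more RNA per cell, and the 2 cannot be told apart.

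The CESA8-type gene Sobic.003G296400 was expressed at 3.81, 4.34 and 4.2 RPKM in the 3 libraries of Int1 and at 26.75, 19.64 and 7.07 RPKM in Int2. Its level was 171.58, 167.13 and 276.70 RPKM in Int3 and 186.39, 126.04 and 127.02 RPKM in Int4. All Int2 libraries were above all Int1 libraries, all Int3 libraries were above all Int2 libraries, and the Int3 and Int4 ranges overlapped. From Int1 to Int4 the mean RPKM was 4.12 ± 0.275, 17.8 ± 9.97, 205 ± 62 and 146 ± 34.6 (SD, n = 3 each). The Int3 mean was 49.8 times that of Int1 and 11.5 times that of Int2. It was the most abundant of the 3 genes in Int3.

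The CESA7-type gene Sobic.002G205500 followed the same course at a lower level. It was listed at 3.09, 4.2 and 4.52 RPKM in Int1 and at 22.13, 16.35 and 5.88 RPKM in Int2. The Int3 libraries had 132.66, 121.08 and 200.63 RPKM and the Int4 libraries 176.79, 108.96 and 100.90 RPKM. The only overlap between neighbouring internodes was that of Int3 with Int4. Its mean RPKM from Int1 to Int4 was 3.94 ± 0.75, 14.8 ± 8.24, 151 ± 43 and 129 ± 41.7 (SD, n = 3 each), and the Int3 mean was 38.5 times that of Int1.

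The CESA4-type gene Sobic.001G224300 had 3.53, 4.82 and 5.17 RPKM in Int1 and 24.03, 17.57 and 7.64 RPKM in Int2. It reached 127.63, 123.45 and 187.20 RPKM in the Int3 libraries and 184.97, 101.34 and 92.86 RPKM in those of Int4. Again Int3 and Int4 overlapped and the other neighbouring internodes did not. The means of Int1 to Int4, in this order, were 4.51 ± 0.864, 16.4 ± 8.26, 146 ± 35.7 and 126 ± 50.9 RPKM (SD, n = 3 each). The Int3 mean was 32.4 times that of Int1, the lowest ratio of the 3 genes, and in Int1 this gene had the highest mean of the 3.

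**Figure D1:**
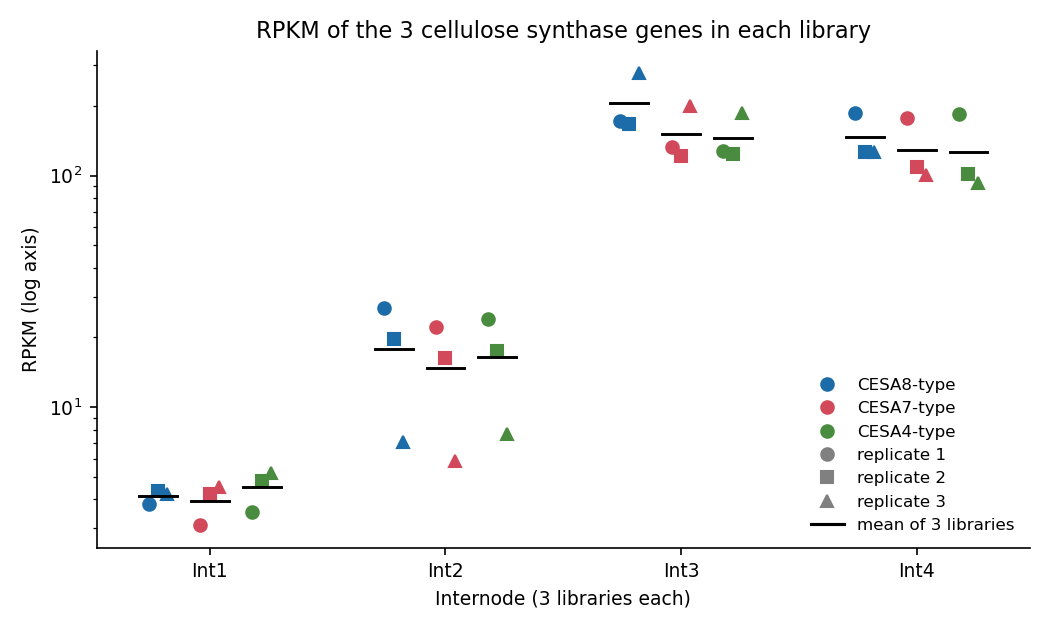
RPKM (log axis) of the CESA8-type, CESA7-type and CESA4-type genes in the 3 libraries of each internode; each symbol is 1 library and black lines are means. For every gene the Int1 libraries lie between 3.09 and 5.17 RPKM and the Int3 libraries between 121.08 and 276.70 RPKM, and in Int2 replicate 3 is the lowest library.

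By mean RPKM the order was Int1, Int2, Int4, Int3 from low to high for all 3 genes, and the Int4 means were 71.4% (CESA8-type), 85.1% (CESA7-type) and 86.5% (CESA4-type) of the Int3 means. Int3 and Int4 were the neighbours in this order whose libraries overlapped. These means are of unscaled RPKM. The median ratio of a library to the transcript means over all libraries was 0.822 to 0.908 in Int4 and 0.938 to 0.976 in Int3. Whether the order of Int3 and Int4 holds after scaling by this ratio was not tested. In their rank by RPKM among all 47205 transcripts, the 3 genes moved from places between 13953 and 16757 in the Int1 libraries to places between 152 and 560 in the Int3 libraries.

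On the log2(RPKM + 0.5) scale, the difference of Int3 from the mean of Int1 and Int2 was 4.54 (SE 0.33) for the CESA8-type gene, 4.27 (SE 0.34) for the CESA7-type gene and 4.05 (SE 0.32) for the CESA4-type gene. These were the 20th, 35th and 42nd highest differences of the 26320 transcripts tested, which were those averaging 1 RPKM or more in any internode. All 3 genes were past the thresholds used for a call (limma, Benjamini-Hochberg adjusted p under 0.001, 2-fold or more, and an average of 2 RPKM or more in an internode compared), as were 7.80% of all transcripts tested in this direction. Their Int3 libraries all lay above all Int1 and Int2 libraries, as did those of 20.8% of the transcripts tested. Since this contrast chose the genes, nothing is read from these counts. Within the same annotation group, the transcripts next below the 3 genes were Sobic.002G333800.2 at 3.04 and Sobic.002G118700.1 at 2.25.

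The rise was spread unevenly over the steps. From Int1 to Int2 the log2 differences were 1.80, 1.61 and 1.63 for the CESA8-type, CESA7-type and CESA4-type genes (SE 0.38, 0.39 and 0.37), and none was past the thresholds, although the Int2 libraries were all above the Int1 libraries, as for 17.0% of transcripts tested. From Int2 to Int3 they were 3.64, 3.46 and 3.23, all past the thresholds, as were 4.81% of transcripts tested. From Int3 to Int4 they were -0.47, -0.24 and -0.25, none past the thresholds in a step in which 2.49% of transcripts were called higher and 1.61% lower. The steps that involve Int3 use the values that chose the genes, so nothing is read from the place of the 3 genes against the thresholds.

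The shares of the 3 genes in their summed RPKM changed less between internodes than their levels did. The CESA8-type gene made up 33.1% ± 3.19, 35.9% ± 1.35, 40.7% ± 0.956 and 37% ± 2.82 of the summed RPKM of the 3 genes from Int1 to Int4 (SD, n = 3 each). The CESA7-type share was 29.8% to 32% in the 4 internode means, and the CESA4-type share was 35.7% ± 1.72 in Int1 and 29.2% ± 0.949 in Int3. Thus the CESA8-type gene exceeded the CESA4-type gene by 1.34 to 1.48 times in the Int3 libraries, whereas the same ratio was 0.812 to 1.08 in Int1, and the ranges did not overlap. The ratio of the CESA7-type to the CESA4-type gene was 0.871 to 0.875 in the 3 Int1 libraries and 0.981 to 1.07 in Int3. In Int4 the CESA8-type over CESA4-type ratio ranged from 1.01 to 1.37 and overlapped the Int1 and Int3 ranges. No test was run on these ratios, which use the values that chose the genes.

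Summed over the 3 genes, the RPKM from Int1 to Int4 was 12.6 ± 1.86, 49 ± 26.5, 503 ± 141 and 402 ± 127 (SD, n = 3 each). The other CESA-type transcripts that the study listed in the same group were 8 transcripts of 6 loci, matched to Arabidopsis CESA1, CESA2, CESA3 and CESA6. Their summed RPKM was 602 ± 20.9 in Int1 and 1876 ± 92.8 in Int3. The 3 genes thus held 2.05% ± 0.321 of the RPKM of the listed CESA-type transcripts in Int1 and 3.82% ± 1.79 in Int2. This share was 20.9% ± 3.88 in Int3 and 18.6% ± 2.97 in Int4. The study listed its differentially expressed transcripts, so any CESA transcript outside that list is missing from the share. The CESA1, CESA2, CESA3 and CESA6 types together had a higher summed RPKM than the 3 genes in all 12 libraries.

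**Figure D2:**
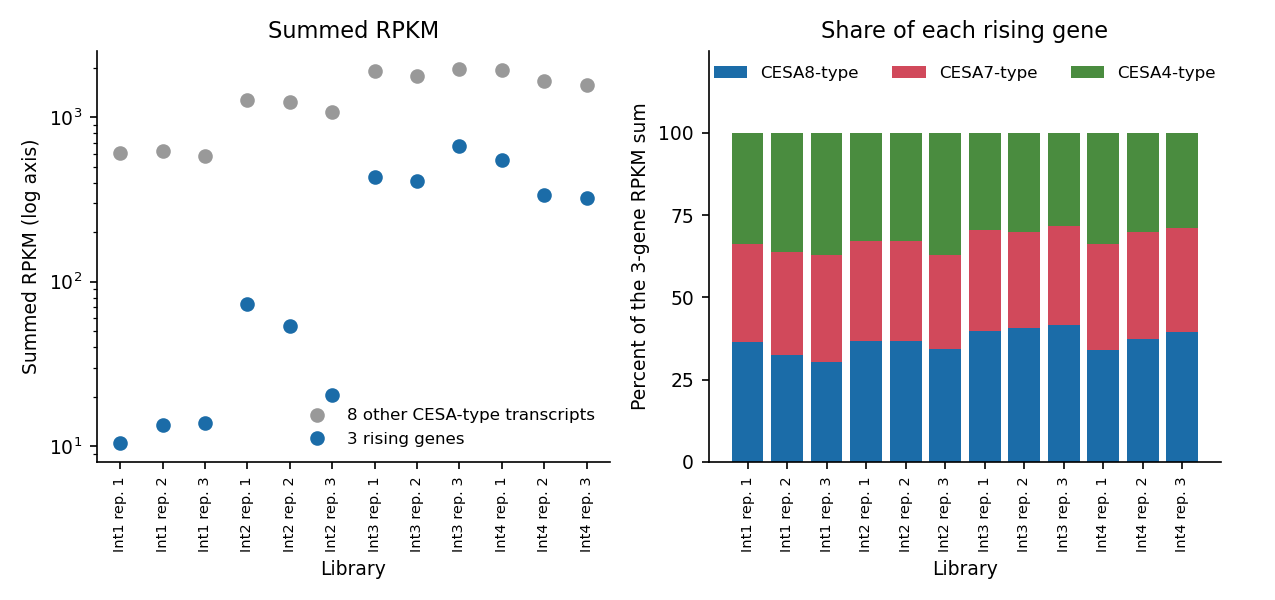
Left, the summed RPKM (log axis) of the 3 rising genes and of the 8 other CESA-type transcripts in each library; right, the percent of the 3-gene sum that each gene held in each library. The 3-gene sum averages 12.6 RPKM in Int1 and 503 RPKM in Int3, and the CESA8-type share averages 33.1% in Int1 and 40.7% in Int3.

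The 3 genes also deviated together between libraries of the same internode. The choice of the genes used differences between internodes and not these deviations, but it may still bear on them. Int2 spread most, with a coefficient of variation of 50.3% to 55.9%, against 6.67% to 19.2% in Int1, 24.4% to 30.2% in Int3 and 23.6% to 40.3% in Int4. In Int2 replicate 3 all 3 genes were lowest, in Int3 replicate 3 all 3 were highest, and in Int4 replicate 1 all 3 were highest. Each pair of genes lay on the same side of its internode mean in 12 of 12 libraries.

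Over the 12 libraries, the deviations from the internode mean on the log2(RPKM + 0.5) scale correlated with r = 0.98 and rho = 0.874 between the CESA8-type and CESA7-type genes (exact two-sided permutation within internodes, p = 0.0039 for r and p = 0.0054 for rho). Between the CESA8-type and CESA4-type genes, r was 0.952 and rho was 0.86 (exact permutation p = 0.0046 and p = 0.0054). Between the CESA7-type and CESA4-type genes, r was 0.989 and rho was 0.993 (exact permutation p = 0.00077 for both, the smallest that these permutations can give). Adjusted over the 3 pairs (Benjamini-Hochberg, exact permutation), p was 0.0046, 0.0046 and 0.0023 for r, and 0.0054, 0.0054 and 0.0023 for rho. These permutations treat the 12 libraries as independent, although they came from 3 plants and the labels do not say which libraries share a plant. Without the 2 libraries farthest from the median, Int2 replicates 1 and 3, r was 0.946, 0.904 and 0.982.

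Over all 26320 transcripts tested, the median r was -0.13 with the CESA8-type gene and -0.14 with the CESA7-type gene. Ordered by r with the CESA7-type gene, the CESA4-type gene was the 4th transcript, and with the CESA8-type gene the CESA7-type gene was the 13th and the CESA4-type gene the 65th. The points of each correlation share their libraries, and many other transcripts had the same extremes. Of the 2050 other transcripts called higher in Int3, 51.6% had their lowest Int2 value in replicate 3, 59.2% had their highest Int3 value in replicate 3 and 55.6% had their highest Int4 value in replicate 1. The permutations and ranks did not set the 3 genes against such transcripts alone. Whether the 3 genes deviate together more closely than other rising transcripts was not tested.

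**Figure D3:**
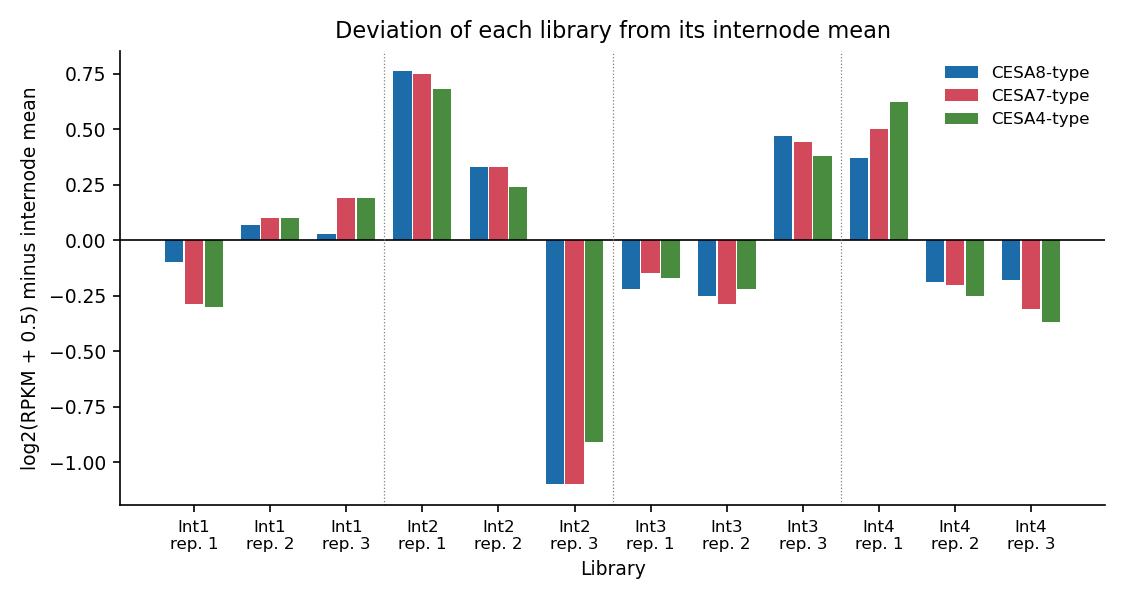
Deviation of each library from its internode mean, in log2(RPKM + 0.5), for the 3 genes; dotted lines separate the internodes. The bars of the 3 genes point the same way in all 12 libraries, and the longest are in Int2 replicates 1 and 3.

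Transcripts of cellulose and hemicellulose synthesis from the same functional annotation gave the setting of this rise. The study listed its differentially expressed transcripts there, so a count of those that changed is not independent evidence of a direction. Of 36 such transcripts in 4 groups, 13 were called higher and 3 lower in Int3 than in the mean of Int1 and Int2 (36.1% and 8.33%), against 7.80% and 7.42% of all 26320 transcripts tested. The median log2 difference was 0.82 over the 36 and -0.04 over all tested.

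Among the 13 other transcripts of the cellulose synthase superfamily, 3 were called higher and 2 lower in Int3, with a median log2 difference of 0.78. Sobic.002G118700.1, a CESA2-type transcript, was the most abundant of the listed CESA-type transcripts in Int3. It was at 59.39, 60.75 and 84.48 RPKM in Int1, 202.35, 223.97 and 189.39 RPKM in Int2 and 552.86, 535.84 and 600.28 RPKM in Int3, with no overlap. It rose by a log2 difference of 2.25 (SE 0.12, limma adjusted p = 1.3e-07). The other transcripts of this locus, Sobic.002G118700.2 (0.75, limma adjusted p = 0.0201) and Sobic.002G118700.3 (0.77, limma adjusted p = 0.0863), were not called, and since shared reads can be divided between transcripts, the split within the locus is uncertain. Sobic.002G075500.1, matched to the primary wall gene CESA3, rose by 1.06 (SE 0.10, limma adjusted p = 4.51e-06). The CESA1-type Sobic.009G063400.1 (0.78), the CESA6-type Sobic.001G021500.1 (0.83) and the CESA2-type Sobic.002G094600.1 (0.81) had adjusted p under 0.001 but were below the 2-fold limit.

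The CSLD genes encode cellulose synthase-like proteins of group D, several of which act in tip growth or cell division in Arabidopsis. Both transcripts of the CSLD2-type locus Sobic.002G333800 changed, in opposite directions. Sobic.002G333800.2 was at 0.22 to 0.69 RPKM in Int1 and 8.76 to 11.12 RPKM in Int3 and rose by 3.04 (SE 0.22, limma adjusted p = 7.47e-07), whereas Sobic.002G333800.1 was at 4.46 to 5.39 RPKM in Int1 and 1.34 to 1.46 RPKM in Int3 and fell by 1.31 (SE 0.17, limma adjusted p = 4.15e-05). Reads shared by both can be divided between them in the alignment, so the split within this locus is uncertain. The CSLD5-type Sobic.008G125700.1 fell by 3.62 (SE 0.30, limma adjusted p = 1.67e-06), from 29.10 to 43.59 RPKM in Int1 to 1.24 to 2.89 RPKM in Int3.

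COBRA proteins are attached to the outer face of the plasma membrane and are needed for ordered cellulose deposition, and the Arabidopsis member COBL4 (IRX6) acts in secondary walls. Of 6 COBRA family transcripts 3 were called higher and 0 lower, and the median log2 difference was 1.12 (all 6 differences were above 0). The COBL4-type Sobic.001G336700.1 was at 1.04, 0.67 and 0.59 RPKM in Int1 and 9.49, 4.71 and 1.77 RPKM in Int2. It was at 54.90, 51.94 and 73.38 RPKM in the Int3 libraries and at 78.95, 46.03 and 41.35 RPKM in those of Int4. Its lowest Int2 library and its highest Int3 and Int4 libraries were those of the 3 CESA genes. Each of these extremes was found in 51.6% to 59.2% of the 2050 transcripts called higher in Int3 apart from the 3 genes. Nothing is therefore read from the shared extremes. Sobic.001G336700.1 rose by 4.59 (SE 0.37, limma adjusted p = 1.41e-06), a log2 difference close to those of the 3 genes. A second COBL4-type transcript, Sobic.002G368300.1, rose by 2.3 (SE 0.31, limma adjusted p = 5.94e-05). The COBL1-type Sobic.002G368100.1 passed at 1.37 (limma adjusted p = 0.000385), and its call was lost without Int1 replicate 2 (1.37), Int1 replicate 3 (1.32), Int2 replicate 2 (1.37), Int2 replicate 3 (1.36), Int3 replicate 2 (1.22) or Int3 replicate 3 (1.24), and with no filter on low values (1.37).

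Glucuronoxylan is the main hemicellulose of secondary walls in dicots and is also a part of grass walls. IRX9 helps to build its backbone in Arabidopsis, and GUX proteins add the glucuronic acid side groups. Of 5 transcripts of this group 2 were called higher and 0 lower, with a median log2 difference of 1.98 and all 5 differences above 0. The IRX9-type Sobic.001G409100.1 ranged over 7.42 to 10.02 RPKM in Int1, 14.67 to 19.93 RPKM in Int2 and 57.26 to 67.88 RPKM in Int3, reached 86.59 to 144.63 RPKM in the Int4 libraries, and rose by 2.3 (SE 0.16, limma adjusted p = 5.05e-07). The GUX2-type Sobic.001G479800.2 rose by 2.79 (SE 0.34, limma adjusted p = 3.11e-05). The other transcript of this locus, Sobic.001G479800.1, had 2.57, 9.32 and 19.09 RPKM in Int3 and did not pass (1.98, limma adjusted p = 0.00164). It passed without Int3 replicate 1 (2.70).

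Of 12 transcripts for mannan and glucan backbones and KORRIGAN-type endoglucanases, 5 were called higher and 1 lower, with a median log2 difference of 0.71. KORRIGAN is a membrane-bound endoglucanase that works with the cellulose synthase complex. Both KORRIGAN-type transcripts rose, Sobic.006G282300.1 by 1.98 (SE 0.25, limma adjusted p = 4.27e-05) and Sobic.001G099100.1 by 1.05 (limma adjusted p = 3.41e-06), the latter falling just short of 2-fold without Int3 replicate 3 (0.98). CSLA and CSLC proteins make mannan and xyloglucan backbones. The CSLC5-type Sobic.002G208200.1 rose by 1.25, and the CSLA9-type Sobic.010G197300.1 and Sobic.010G197300.3, of 1 locus, rose by 2.85 and 2.58. With no filter on low values the calls of both were lost. The call of Sobic.010G197300.3 was also lost without Int3 replicate 1 (2.58), Int3 replicate 2 (2.54) or Int3 replicate 3 (2.62). The only transcript called lower was the CSLA9-type Sobic.007G137400.1 (-1.06), which did not pass without Int3 replicate 3 (-0.95), and the count of lower calls in this group became 2 without Int1 replicate 2 or Int2 replicate 3.

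**Figure D4:**
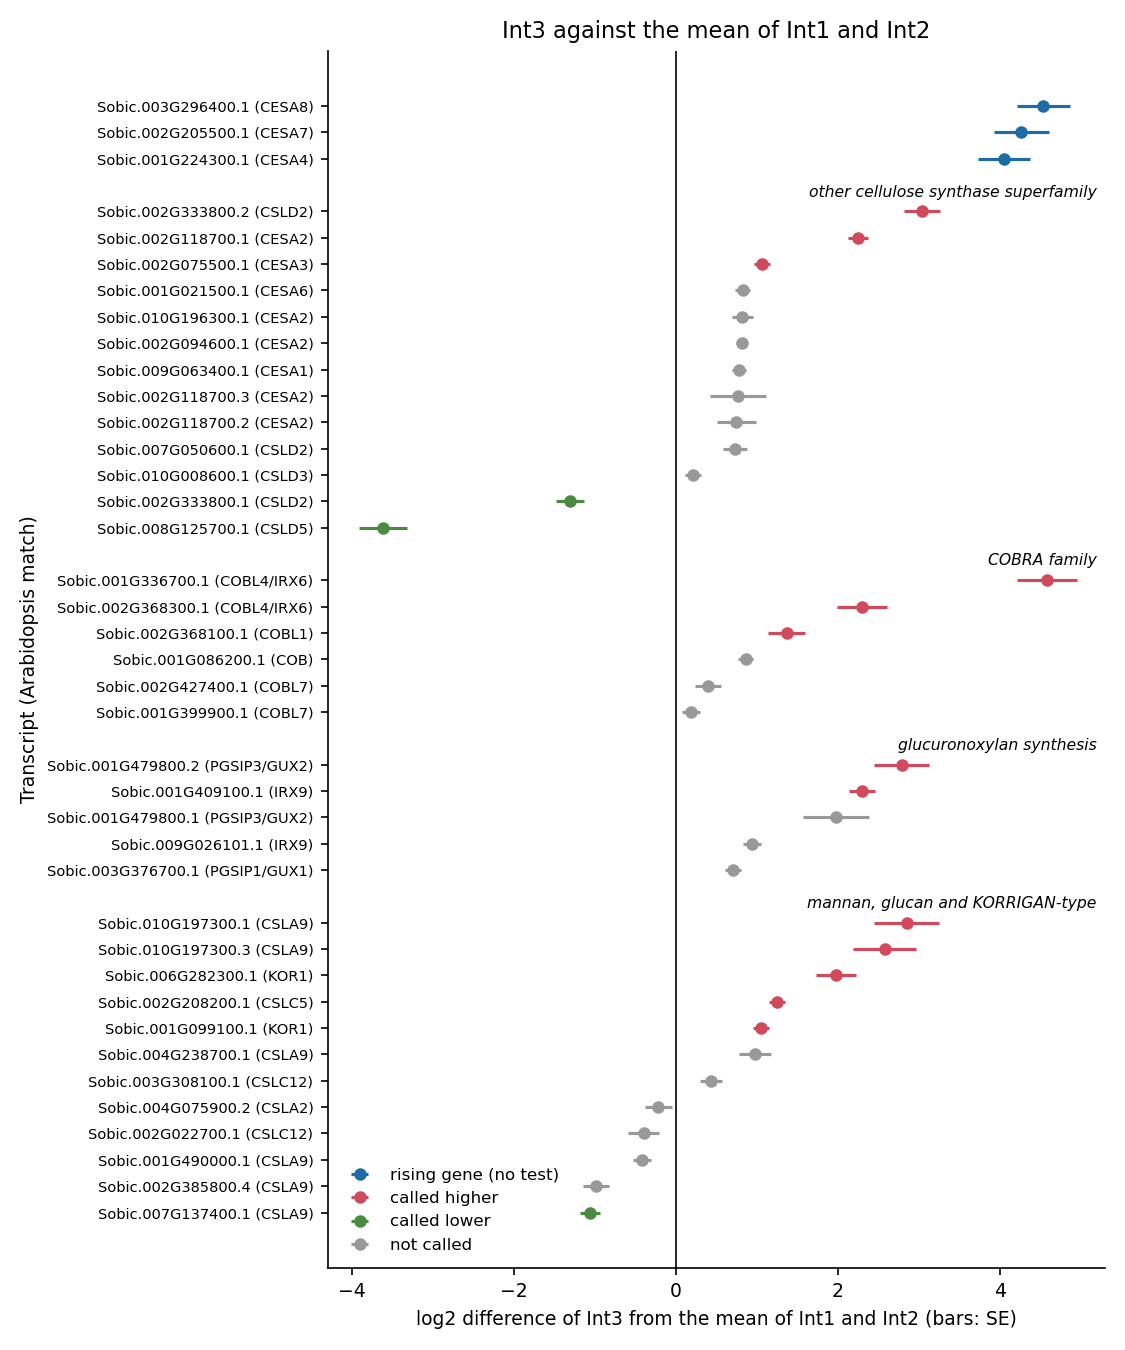
Log2 difference of Int3 from the mean of Int1 and Int2 (points, with SE bars) for the 3 rising genes and 36 transcripts of 4 groups; colours give the call. The 3 genes lie at 4.05 to 4.54, and among the other transcripts the COBL4-type Sobic.001G336700.1 lies highest at 4.59 and the CSLD5-type Sobic.008G125700.1 lowest at -3.62.

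By step, 1 of the 36 transcripts was called higher and 0 lower between Int1 and Int2 (22 and 3 at an unadjusted limma p under 0.05), the CESA2-type Sobic.002G118700.1 at 1.60 (limma adjusted p = 9.89e-05), against 0.433% and 0.0418% of all transcripts tested. At an unadjusted limma p under 0.05, 7902 of all 26320 transcripts tested differed in this step, both directions together. The number of the 36 called higher was 0 without Int2 replicate 2 and 3 without Int2 replicate 3, the library in which the 3 CESA genes were lowest. Between Int2 and Int3, 5 were called higher and 2 lower, against 4.81% and 4.32% of those tested. The 5 were Sobic.002G118700.1 (1.46), the CSLD2-type Sobic.002G333800.2 (2.60), the COBL4-type Sobic.001G336700.1 (3.61), the IRX9-type Sobic.001G409100.1 (1.82) and the GUX2-type Sobic.001G479800.2 (2.24). The 2 called lower were the CSLD5-type Sobic.008G125700.1 (-3.38) and the CSLD2-type Sobic.002G333800.1 (-1.09), and the count was 1 on leaving out any library of Int1 or of Int2, the library Int3 replicate 3 or the library Int4 replicate 2.

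Between Int3 and Int4, 1 transcript was called higher, the COBL7-type Sobic.002G427400.1 (1.99), and 4 were called lower, all CSLA or CSLC types, against 2.49% and 1.61% of all transcripts tested. These were Sobic.010G197300.1 (-3.08), Sobic.010G197300.3 (-2.83), Sobic.003G308100.1 (-1.50) and Sobic.004G075900.2 (-1.83). The count of 4 was 2 on leaving out any library of Int1 or of Int3, or the library Int4 replicate 2. With only the libraries of Int3 and Int4 in the limma fit, 0 were called higher and 0 lower. In the fit on all 12 libraries 14 were higher and 13 lower at an unadjusted limma p under 0.05. At that unadjusted p, 10168 of all 26320 transcripts tested differed in this step, both directions together. The 3 CESA genes and the COBL4-type Sobic.001G336700.1 were not among the transcripts called in this step.

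The agreement with the 3 CESA genes in the deviations within internodes varied among single transcripts within each group, and the ranges of the 4 groups overlapped. The mean r with the 3 CESA genes was 0.889 and 0.866 for the COBL4-type transcripts Sobic.001G336700.1 and Sobic.002G368300.1, 0.856 for the GUX2-type Sobic.001G479800.2, 0.852 for the CESA3-type Sobic.002G075500.1, 0.836 for the KORRIGAN-type Sobic.001G099100.1 and 0.826 for the CESA1-type Sobic.009G063400.1. It was 0.48 for the CESA2-type Sobic.002G118700.1 and -0.754 for the CESA2-type Sobic.010G196300.1, which was below 3 RPKM in every internode mean. The values of 0.826 to 0.889 were the highest of the 36 listed transcripts, and -0.754 was the lowest. The lowest in the other groups were -0.587 (CSLC12-type Sobic.002G022700.1), -0.287 (GUX1-type Sobic.003G376700.1) and -0.247 (COBL7-type Sobic.001G399900.1). Over all tested transcripts the median was -0.142, and 0.517% had a mean r of at least 0.9, which none of the 36 reached. These values are a description over 12 shared libraries.

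The 10 transcripts most like the 3 genes, 1 per locus, were taken by Pearson r with the mean z-score of the 3 genes on log2(RPKM + 0.5) over the 12 libraries. They had r of 0.994 to 0.998, in a table in which 1882 transcripts reached 0.9 and 121 reached 0.98. In order of r they were Sobic.001G422300.1, Sobic.009G034300.1, Sobic.009G162500.1, Sobic.003G353200.1, Sobic.006G066500.1, Sobic.010G219800.1, Sobic.006G064600.1, Sobic.001G336700.1, Sobic.004G047600.1 and Sobic.009G162300.1. The list depends on the measure of likeness: 3 of the 10 were also among the 10 most similar by Spearman rho, and 0 by Pearson r on the 4 internode means. The annotation used here described 3 of them. Sobic.009G162500.1 matched a cytochrome P450 of flavonoid hydroxylation (TT7), Sobic.006G064600.1 matched a plastidic acetyl-CoA synthetase, and Sobic.001G336700.1 is the COBL4-type transcript above.

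The closest by this measure, Sobic.001G422300.1, was at 0.18, 0.42 and 0.24 RPKM in Int1 and 3.78, 2.67 and 0.92 RPKM in Int2. Its Int3 libraries had 30.90, 29.06 and 57.02 RPKM and its Int4 libraries 41.24, 21.28 and 18.15 RPKM. Its lowest Int2 library and its highest Int3 and Int4 libraries were those of the 3 CESA genes. It was chosen for its likeness over these same libraries, so nothing is read from the shared extremes. Over the 10, the log2 difference of Int3 from the mean of Int1 and Int2 ran from 2.18 (Sobic.006G064600.1, at 10.1 ± 0.248 RPKM in Int1 and 63.6 ± 12.5 RPKM in Int3, SD, n = 3) to 4.89 (Sobic.009G162500.1, at 1.49 ± 0.25 and 106 ± 50.3 RPKM). Likeness in the pattern says nothing about the level.

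**Figure D5:**
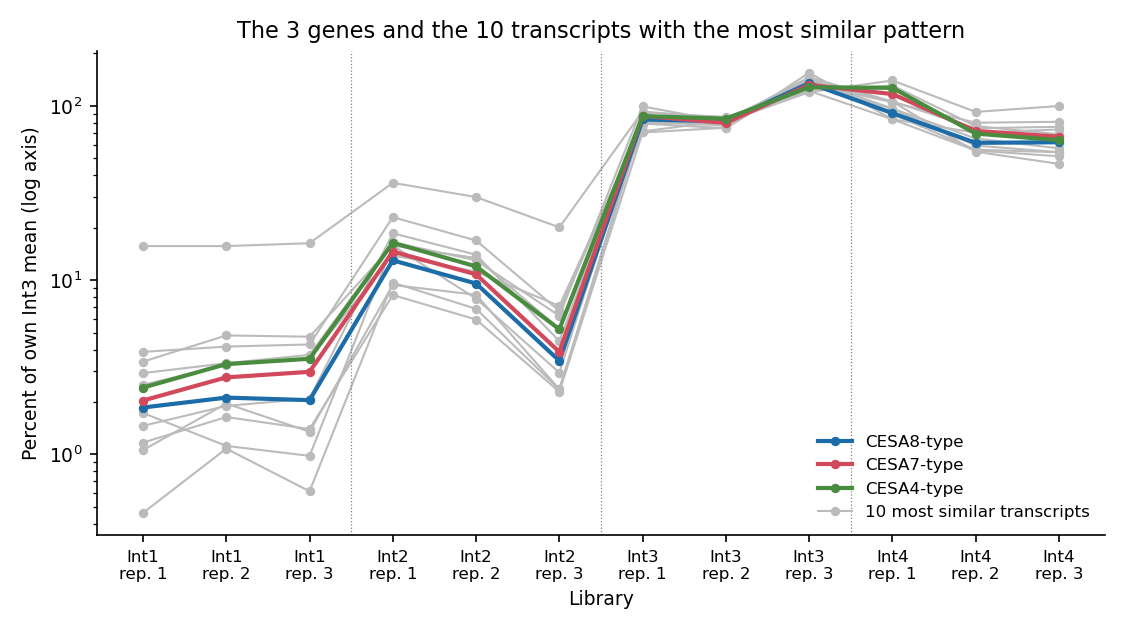
RPKM of the 3 genes (coloured) and of the 10 most similar transcripts (grey) in each library, as a percent of their own Int3 mean (log axis). Within Int2, replicate 3 is the lowest library of every line, and the highest library of all is Int3 replicate 3 except for Sobic.001G336700.1 and Sobic.010G219800.1, which are highest in Int4 replicate 1. In Int1 the line above the others is Sobic.006G064600.1. The grey lines were chosen for their likeness over these same libraries.

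As a check on green tissue, the summed RPKM of 12 transcripts of the photosynthesis light reactions was 149 to 161 in the Int1 libraries, 178 to 194 in those of Int2, 171 to 191 in those of Int3 and 169 to 208 in those of Int4. Of the 12, 2 had a mean below 1 RPKM in Int1 and 2 in Int2, and 0 in Int3 and Int4. The sum covers markers that went opposite ways. Between the Int1 and Int3 means 8 of the 12 were higher in Int3 and 4 were lower, and 6 of the 12 had their highest mean in Int4. Sobic.001G314200.2 averaged 12.1 RPKM in Int1, 30.6 RPKM in Int3 and 49.1 RPKM in Int4, whereas Sobic.004G359500.1 averaged 27 RPKM in Int1, 13.4 RPKM in Int3 and 7.15 RPKM in Int4. Over the 12 libraries, the 3 highest r of these markers with the mean pattern of the CESA genes were 0.963 (Sobic.003G431700.1), 0.899 (Sobic.001G179100.1) and 0.892 (Sobic.001G314200.2). It was negative for Sobic.001G458000.1 (-0.838), Sobic.004G359500.1 (-0.820), Sobic.007G150800.1 (-0.608) and Sobic.002G342600.1 (-0.565). The remaining markers ran from 0.678 to 0.812. These r are given as a description. The part of green tissue in the rise of the CESA genes was not tested.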

How the data were processed

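Internodes of 3 plants were sequenced as single-end reads from polyA RNA. The authors aligned the reads to the sorghum v3.1 transcripts with the CLC Genomics Workbench and deposited 12 columns of RPKM, given to 2 decimals, over 47205 transcripts. How reads that fit several transcripts were assigned is not given in the sources used here. The authors tested counts with edgeR within CLC. Read counts were not used here, so no counting interval is given.

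RPKM was transformed to log2(RPKM + 0.5). Transcripts averaging 1 RPKM or more in any internode (26320) entered a linear model in limma (version 3.58.1, R 4.3.3) that used all 12 libraries, 1 coefficient per internode and a trended prior (3.64 prior degrees of freedom), and p was adjusted by Benjamini-Hochberg within each comparison. A call needed adjusted p under 0.001, an absolute log2 difference of 1 or more, and an average of 2 RPKM or more in an internode compared. Permutation tests and plots used scipy 1.17.1, matplotlib 3.10.9, pandas 2.3.3 and numpy 2.4.6 in Python 3.11.15.

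Members and lists were chosen with earlier results of these data known. The transcripts named are all those of the 3 loci, of 4 lists in the study's functional table (used from a shortened copy), and the 10 most similar by Pearson r, 1 per locus. No sequences are shown, since the reference tables used here did not pair these loci with sequences.

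Between Int1 and Int2, libraries with the same replicate number had correlated deviations (r of 0.104 to 0.137 across transcripts). Each of the other 5 pairs of internodes had at least 1 such r under 0.1. The range was -0.14 to 0.051 for Int1 and Int3, and 0.0474 to 0.108 for Int1 and Int4. It was -0.268 to 0.0529 for Int2 and Int3, 0.0448 to 0.235 for Int2 and Int4, and -0.339 to 0.182 for Int3 and Int4. The labels do not say that a number marks a plant. The alternatives were pseudocounts of 0.1 and 1, no filter, median-ratio scaling, a replicate block, only the internodes compared, an adjusted p under 0.05, other measures of likeness and leaving out each library.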

Additional observations from a re-analysis of the deposited data

How the results depend on the processing

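The log2 differences of the 3 CESA genes kept their direction and moved by less than the spread between replicates under the alternatives run for them. The genes were chosen for this rise, so its direction is not read as a result. The differences could not change with no filter, the replicate block, only the internodes compared or an Int4 library left out. The correlations of the 3 genes within internodes kept their direction and an adjusted permutation p under 0.05 under the alternatives run for them. Without any 1 library, the difference of Int3 from the mean of Int1 and Int2 was 4.27 to 4.73 (CESA8-type), 4 to 4.46 (CESA7-type) and 3.82 to 4.21 (CESA4-type).

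Counts of called list transcripts moved more, and the cause was not tested unless fewer samples or a change of the tested set is the alternative itself. For Int3 against the mean of Int1 and Int2, the mannan, glucan and KORRIGAN-type group had 3 higher (in place of 5) with no filter, without the calls of Sobic.010G197300.1 and Sobic.010G197300.3, and 2 lower (in place of 1) with a pseudocount of 0.1, 0 with median-ratio scaling, and 0 to 2 without 1 library. Over the 36 transcripts, the number higher in Int2 than Int1 was 0 with no filter, 0 with only the internodes compared, 4 at an adjusted p under 0.05, and 0 to 3 without 1 library. The number higher in Int3 than Int2 was 12 at an adjusted p under 0.05. The number lower in Int3 than Int2 was 1 (in place of 2) with a pseudocount of 1, no filter, median-ratio scaling, the replicate block or only the internodes compared, and 1 to 2 without 1 library. In Int4 against Int3, the number higher was 0 with only the internodes compared, and the number lower was 2 (in place of 4) with a pseudocount of 0.1 or no filter, 0 with only the internodes compared, and 2 to 4 without 1 library.

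With the replicate block, r between the 3 genes was 0.978, 0.946 and 0.988, and no other list count moved by over 1.5 times. Scaling moved the calls over all transcripts in Int4 against Int3 from 656 higher and 424 lower to 870 and 322, and the median log2 difference from -0.129 to 0.00963. Of the 10 most similar transcripts, 3 were kept with Spearman rho and 0 with Pearson r on the 4 internode means. With 3 libraries per internode and RPKM rounded to 2 decimals, values under 1 RPKM rest on few reads.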
